A study of Mus musculus with 8 samples.

Results

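The genes described here build the coats and docking machinery of the early secretory pathway. They were chosen by symbol: the cargo exporters Mia2 and Mia3, the GTPases Sar1a and Sar1b, the tether Uso1, the COPI subunits, and every gene whose symbol starts with Sec13, Sec16, Sec22, Sec23, Sec24, Sec31, Golga, Kdelr or with Tmed and a digit. The rule matched 51 gene symbols, of which 47 were among the 12404 genes of the RNA count table. The 4 others, Sec31b, Golga7b, Tmed6 and Tmed11, are not analysed here. In the table of 3331 differential m6A peaks, 40 peaks lay in 23 of these genes. No measured value entered the rule, but the genes were chosen with earlier results of these data known.

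The cells were TM3, an established mouse line described in the labels as Leydig cells, the androgen-producing cells of the testis. Normal TM3 cells were compared with TM3 cells exposed to bisphenol A (BPA), a plasticizer building block with weak estrogenic activity. The labels used here give neither the dose nor the time of exposure. Both conditions were read with RNA-seq and with MeRIP-seq, an antibody pull-down of RNA fragments that carry N6-methyladenosine (m6A), and each of the 4 groups had 2 libraries. The RNA-seq libraries were also the input of the MeRIP-seq. The count table held 4 of the 8 libraries, taken here to be the RNA-seq ones. All groups thus come from a single cell line, and whether replicates were separate cultures is not stated, so p-values measure only how far these libraries spread, which may be technical. In bulk RNA, fewer cells with a transcript and less transcript per cell cannot be told apart.

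Secretory and membrane proteins leave the endoplasmic reticulum (ER) in vesicles made by the COPII coat. The GTPase SAR1 recruits the inner coat of SEC23 and SEC24, which binds cargo, and the outer cage of SEC13 and SEC31 bends the membrane, with SEC16 as the scaffold of the exit site. COPI, a separate coat made of coatomer subunits, carries escaped ER proteins and cycling receptors back from the Golgi. Golgins and USO1 tether incoming vesicles, SNAREs such as SEC22B fuse them, p24 proteins of the TMED family sort cargo in both directions, and KDEL receptors return ER chaperones. Leydig cells have an extensive smooth ER, where part of steroid synthesis takes place.

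The 4 libraries held between 6305121 and 10455643 counted reads. Replicates 1 and 2 had 10455643 and 7517482 in normal cells and 8813870 and 6305121 in BPA. Raw reads given below are therefore not on the same scale in the 2 conditions, unlike CPM and log2 fold changes. Of the 9 Leydig markers listed, Scarb1 alone was among the rows of the count table. The others, Star, Cyp11a1, Cyp17a1, Hsd3b1, Hsd3b6, Lhcgr, Insl3 and Nr5a1, had no row, so these markers do not bear out the labelled cell type. Scarb1, a lipoprotein receptor that takes up cholesterol, had 458 and 150 reads in normal cells, compared with 1677 and 331 in BPA. Of the 5 germ cell markers listed, 0 were among the rows. The 4 smooth muscle and endothelial markers came down to Acta2, with 6.93 and 45.1 CPM (counts-per-million) in normal cells and 57.9 and 237 in BPA. The 4 macrophage markers came down to Cd68, with 0 and 7.57 CPM against 20.2 and 81.5. The summed level of the 5 Sertoli markers found of 7 listed was 166 and 309 CPM against 280 and 135. Among them, Wt1 had 1563 and 2307 reads in normal cells, compared with 1952 and 516 in BPA. Clu, the other Sertoli marker tested, went the other way, with a log2 fold change of 1.78 where Wt1 had -0.33. The normal libraries held 221 and 1 Clu reads, and the BPA libraries held 335 and 205. Dhh, Rhox5 and Gata4 were each read in a single library. The part of these markers in the results below was not tested.

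The first comparison asked whether the RNA of the coat genes differed between BPA-exposed and normal cells. No coat gene passed the test, and the genes did not share a direction. The largest positive log2 fold change of the 46 tested genes was that of Mia2, an exporter of large cargo such as collagen and lipoprotein particles, with 389 ± 147 CPM in BPA against 59.0 ± 14.6 in normal cells (SD, n = 2 each). In the other direction, the KDEL receptor gene Kdelr1 had 0.245 ± 0.182 against 61.9 ± 5.25 CPM, and the GTPase gene Sar1b and the SNARE-related gene Sec22c had no read in either BPA library. Of the 47 genes, 46 had enough reads to be tested, 22 with positive and 24 with negative log2 fold changes. The exception, Tmed1, had 111 reads in normal replicate 2 and none in the other libraries.

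Fitted over all 8645 tested genes and adjusted by Benjamini-Hochberg, edgeR's quasi-likelihood test called 0 of the 46 coat genes and 0.0% of the table. At an unadjusted p under 0.05 in edgeR, 1 coat gene was higher in BPA, where 2.41% of all genes were, and 2 were lower, where 7.23% were. DESeq2 called 1 coat gene higher, against 0.521% of all genes, and 2 lower, against 2.53%. Under either tool these were Mia2 higher and Kdelr1 and Sec22c lower. In CPM, BPA exceeded normal cells in every pair of libraries in 9 of the 46 genes (19.6%) and in 12.8% of all genes, and was below in every pair in 11 (23.9%) and in 27.2% of all genes. The median log2 fold change was -0.07 for the coat genes and -0.02 for all tested genes. With DESeq2's size factors in place of TMM, both medians moved up by 0.14, to 0.07 and 0.12, so the sign of the typical coat gene depends on the scaling. The unadjusted split of all genes, 208 higher and 625 lower, became 328 and 429 under that scaling.

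**Figure D1:**
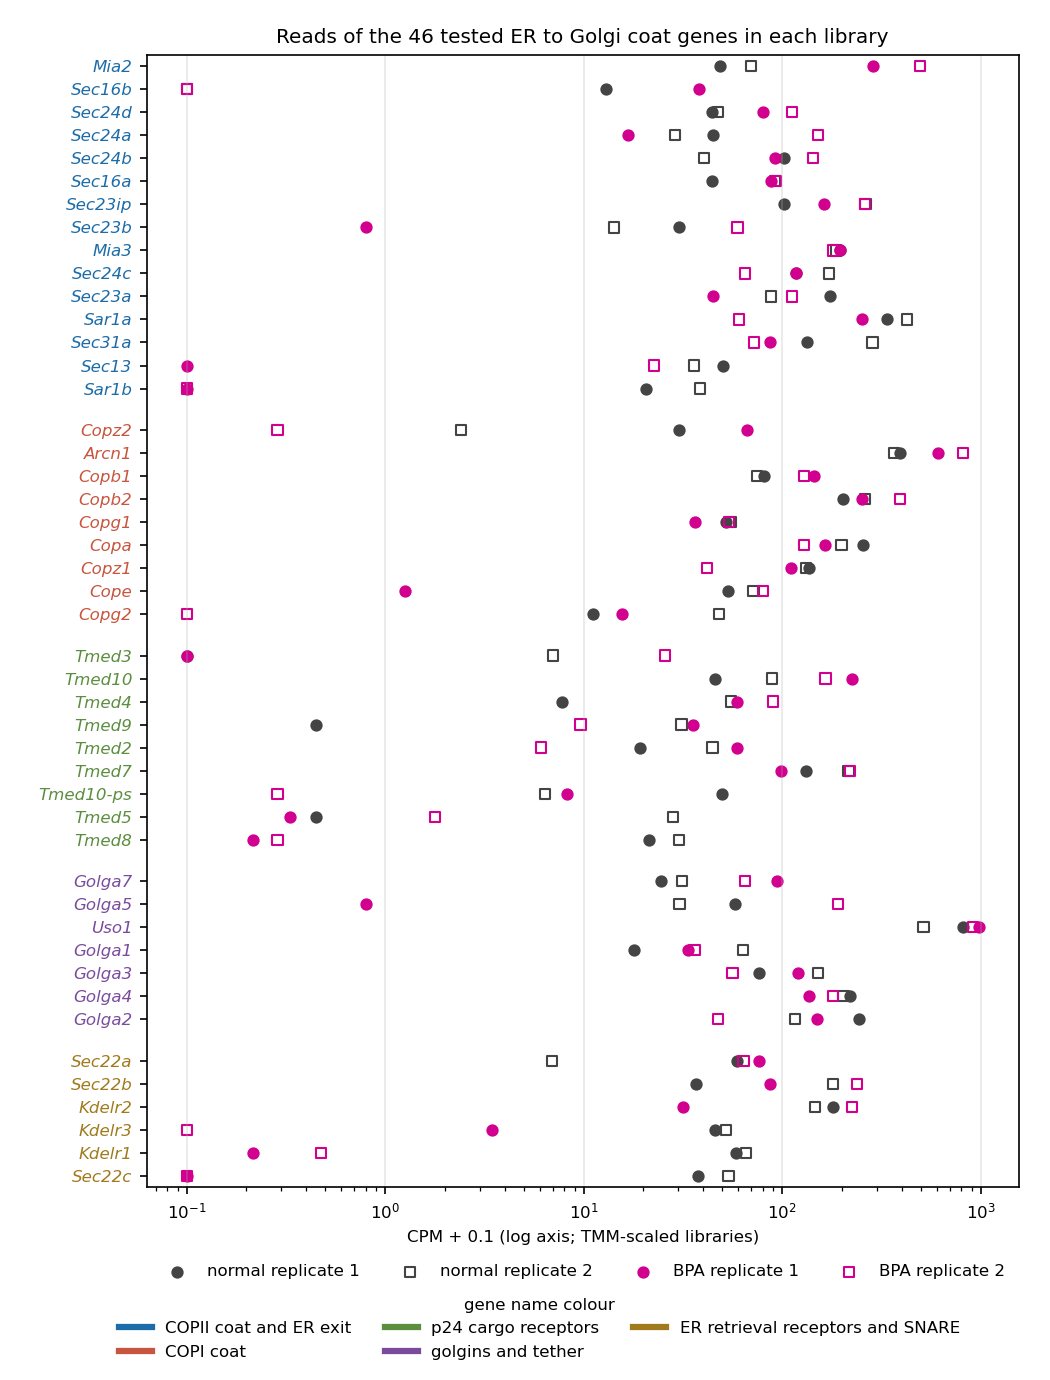
CPM (plus 0.1, log axis) of the 46 tested coat genes in the 2 normal (grey) and 2 BPA (magenta) libraries, with replicate 1 as filled circles and replicate 2 as open squares, grouped by role and sorted by log2 fold change. Mia2, Arcn1 and Uso1 lie to the right in BPA, while Sar1b, Sec22c, Kdelr1 and Tmed8 lie at or near 0 in both BPA libraries and other genes, such as Sec13 and Copg2, do so in 1 BPA library.

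Replicates of a condition disagreed strongly for many of these genes. The BPA libraries were over 10-fold apart, after adding 1 read and scaling by library size, in 10 of the 46 coat genes (21.7%) and in 39.7% of all tested genes. The normal libraries were that far apart in 5 coat genes (10.9%) and in 13.3% of all genes. Golga5, a golgin of the Golgi rim, had 6 reads in BPA replicate 1 and 1025 in BPA replicate 2. Cope, of the epsilon subunit of coatomer, had 10 and 427 reads there, and Copz2 had 570 and 1. In the plot of CPM by library, the BPA marks of these 3 genes lie far apart.

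Among the COPII and exit site genes, 8 log2 fold changes were positive and 7 negative, with that of Mia2 the highest. Normal cells gave 562 and 541 Mia2 reads, and BPA cells gave 2452 and 2636. Both BPA libraries were above both normal ones, and in CPM the 2 BPA libraries were 285 and 493, further apart than the normal ones at 48.7 and 69.4. The log2 fold change was 2.73 ± 0.74 (SE), with an edgeR adjusted p of 0.372 and a DESeq2 adjusted p of 0.0139. It stayed between 2.34 and 3.14 when any single library was left out. Its paralogue Mia3, known as TANGO1, which holds collagen at the exit site, had 2251 and 1461 reads in normal cells, compared with 1691 and 968 in BPA. In CPM the Mia3 groups overlapped, at 191 ± 5.45 and 189 ± 11.0 CPM (SD, n = 2 each), with a log2 fold change of -0.02 ± 0.68 (SE).

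The GTPases that start coat assembly had fewer reads in BPA. Sar1a had 3909 and 3324 reads in normal cells, compared with 2181 and 325 in BPA. Sar1b, its close paralogue with a known role in lipoprotein export, had 236 and 300 reads in normal cells, compared with 0 in both BPA libraries. Against a floor of 3 reads summed over the BPA pair, the BPA level was at least 129-fold lower, a bound that covers counting error only. Neither gene passed: the edgeR adjusted p was 0.447 for Sar1a and 0.372 for Sar1b, and DESeq2 gave 0.727 and 0.0829. The Sar1a log2 fold change of -1.19 ± 0.68 (SE) moved to -2.60 when BPA replicate 1 was left out and to -0.55 without the other BPA library. The sources used here do not say how reads shared by the 2 paralogues were counted, so the split between them is uncertain.

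Inner coat genes mostly overlapped between conditions. Sec23a, of the inner coat, had 2016 and 681 reads in normal cells, compared with 387 and 598 in BPA, and Sec23b had 348 and 110 against 6 and 318. The cargo-binding Sec24 genes differed in sign. Sec24d had 510 and 370 reads in normal cells, compared with 689 and 597 in BPA, with both BPA libraries above both normal ones in CPM. Sec24a and Sec24b had positive log2 fold changes of 0.96 ± 1.29 and 0.61 ± 0.95 (SE), and Sec24c had -0.59 ± 0.86. The edgeR adjusted p of these 6 genes lay between 0.743 and 0.991.

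The outer cage genes had fewer reads in BPA. Sec31a, the cage rod, had 1544 and 2224 reads in normal cells, compared with 746 and 387 in BPA, with both BPA libraries below both normal ones. Its log2 fold change was -1.35 ± 0.84 (SE) and its edgeR adjusted p 0.504, and without normal replicate 2 the log2 fold change was -0.70. Sec13, the partner of SEC31 that also sits in the nuclear pore, had 581 and 280 reads in normal cells, compared with 0 and 120 in BPA. The scaffold genes did not separate the conditions: Sec16a had 508 and 714 reads against 755 and 496, and Sec16b had 148 and 0 against 326 and 0. Sec23ip, a phospholipase-like partner of SEC23, had 1180 and 2050 against 1394 and 1402 reads, again with overlapping groups.

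The subunit genes of COPI coatomer, a single complex of the cytosol, did not differ in the same direction throughout. The delta subunit gene Arcn1 had 4513 and 2864 reads in normal cells, compared with 5237 and 4347 in BPA, or 379 ± 16.8 against 710 ± 144 CPM (SD, n = 2 each). Both BPA libraries lay above both normal ones, with a log2 fold change of 0.90 ± 0.48 (SE), an edgeR adjusted p of 0.396 and a DESeq2 adjusted p of 0.319. The alpha subunit gene Copa went the other way, with 2936 and 1552 reads against 1412 and 688, or 227 ± 39.2 against 146 ± 25.1 CPM. Copb1, of the beta subunit, had 935 and 583 reads against 1243 and 688. Copb2, of the beta-prime subunit, had 2322 and 2031 against 2171 and 2105, or 231 ± 41.9 against 323 ± 99.8 CPM. Copz1, of the zeta subunit, had 1577 and 1027 reads against 947 and 223. In CPM the groups were apart for Arcn1 and Copb1, with BPA above, and for Copa and Copz1, with BPA below, and they overlapped for the 5 other COPI genes.

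The gamma and epsilon subunits belonged to the overlapping genes. Copg1 had 601 and 427 reads in normal cells, compared with 313 and 289 in BPA, and its paralogue Copg2 had 128 and 373 against 133 and 0. Cope had 616 and 558 reads in normal cells against the 10 and 427 given above, so that its log2 fold change of -0.89 ± 1.39 (SE) became 0.43 without BPA replicate 1. Copz2, the second zeta gene, had 346 and 18 reads in normal cells, which were as far apart as many BPA pairs. Of the 9 COPI genes, 4 were positive and 5 negative in log2 fold change, at a median of -0.29, with edgeR adjusted p between 0.396 and 0.948.

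KDEL receptors, which capture ER chaperones that reach the Golgi, included some of the coat genes with the fewest reads in BPA. Kdelr1 had 672 and 512 reads in normal cells, compared with 1 and 2 in BPA. Pooled over replicates, BPA cells had 0.00351 of the normal level (exact 95% interval from 0.000723 to 0.0103, for counting error). The log2 fold change was -8.06 ± 3.36 (SE), between -8.85 and -7.26 when any single library was left out, with an edgeR adjusted p of 0.372 and a DESeq2 adjusted p of 0.0139. Kdelr3 had 526 and 405 reads against 29 and 0, with adjusted p of 0.372 in edgeR and 0.392 in DESeq2. Kdelr2 had 2085 and 1137 reads against 270 and 1199, and its groups overlapped. All 3 receptor genes had negative log2 fold changes, and for Kdelr2 the sign turned to 0.50 without BPA replicate 1.

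The Sec22 genes did not share a direction. Sec22c, which lacks the SNARE motif of SEC22B, had 434 and 418 reads in normal cells, compared with 0 in both BPA libraries. Against the same floor of 3 reads over the group, the level was at least 205-fold lower. edgeR gave an adjusted p of 0.372 and DESeq2 0.0196. Sec22b, the SNARE that works on both ER-Golgi routes, had 422 and 1401 reads in normal cells, compared with 743 and 1278 in BPA, with overlapping groups. Sec22a had 682 and 53 reads against 659 and 341, with BPA above in CPM.

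Genes this low in BPA were not rare. Of the coat genes with at least 100 reads in both normal libraries, 4 of 38 (10.5%) had at most 10 in each BPA library, namely Sar1b, Kdelr1, Sec22c and Tmed8. Among all tested genes the share was 12.3%, or 764 of 6193. In the other direction, 0 of 29 coat genes with at least 100 reads in both BPA libraries had 10 or fewer in both normal libraries, where the share of all genes was 0.456%. Replicates of BPA cells also reached such values alone, as in Sec23b with 6 and 318 reads.

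The p24 family ranged from higher to lower. Tmed10, a main p24 cargo receptor that also binds coatomer, had 526 and 689 reads in normal cells, compared with 1944 and 883 in BPA, or 67.0 ± 30.2 against 195 ± 43.1 CPM (SD, n = 2 each). Both BPA libraries lay above both normal ones, with a log2 fold change of 1.62 ± 0.84 (SE) and an edgeR adjusted p of 0.386. Tmed10-ps, a pseudogene that the rule also matched, had 573 and 49 reads against 70 and 1. It overlaps Lyrm4 and Gm18132 in RefSeq. Whether reads were shared between Tmed10, its pseudogene and these neighbours was not tested. Tmed2, which forms complexes with TMED10, had 221 and 347 reads in normal cells, compared with 508 and 32 in BPA. Tmed7 had 1522 and 1682 reads against 852 and 1171, which overlapped in CPM at 174 ± 59.3 and 159 ± 84.7 CPM.

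Other p24 genes were sparse. Tmed8, an atypical member of the family, had 245 and 235 reads in normal cells, compared with 1 in each BPA library. The pooled level in BPA was 0.00577 of the normal one (exact 95% interval from 0.000697 to 0.0210), and its edgeR adjusted p was 0.372. Tmed4 had 89 and 431 reads in normal cells, compared with 509 and 479 in BPA, with BPA above. Tmed9 had 4 and 242 against 305 and 51, Tmed5 had 4 and 218 against 2 and 9, and Tmed3 had 0 and 54 against 0 and 137. For those last 3 genes a single library of each condition held most of the reads.

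Tethers also differed in direction. Uso1, which encodes the p115 tether that binds COPI and COPII vesicles, had 9401 and 4018 reads in normal cells, compared with 8423 and 4910 in BPA. It had 665 ± 212 and 948 ± 43.3 CPM (SD, n = 2 each), with both BPA libraries above both normal ones by a margin smaller than the gap between the normal libraries. The log2 fold change was 0.51 ± 0.43 (SE), with an edgeR adjusted p of 0.681. Golga4, a trans-Golgi golgin, had 2520 and 1587 reads against 1177 and 965, and Golga2, which encodes the cis-Golgi matrix protein GM130, had 2806 and 902 against 1295 and 254. Golga3 had 878 and 1180 reads against 1029 and 300, Golga1 had 206 and 496 against 287 and 193, and Golga7, a cofactor of protein palmitoylation, had 283 and 244 against 805 and 346. BPA was above normal in both libraries for Golga7 and Uso1 and below for Golga4, and the 4 other genes overlapped.

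**Figure D2:**
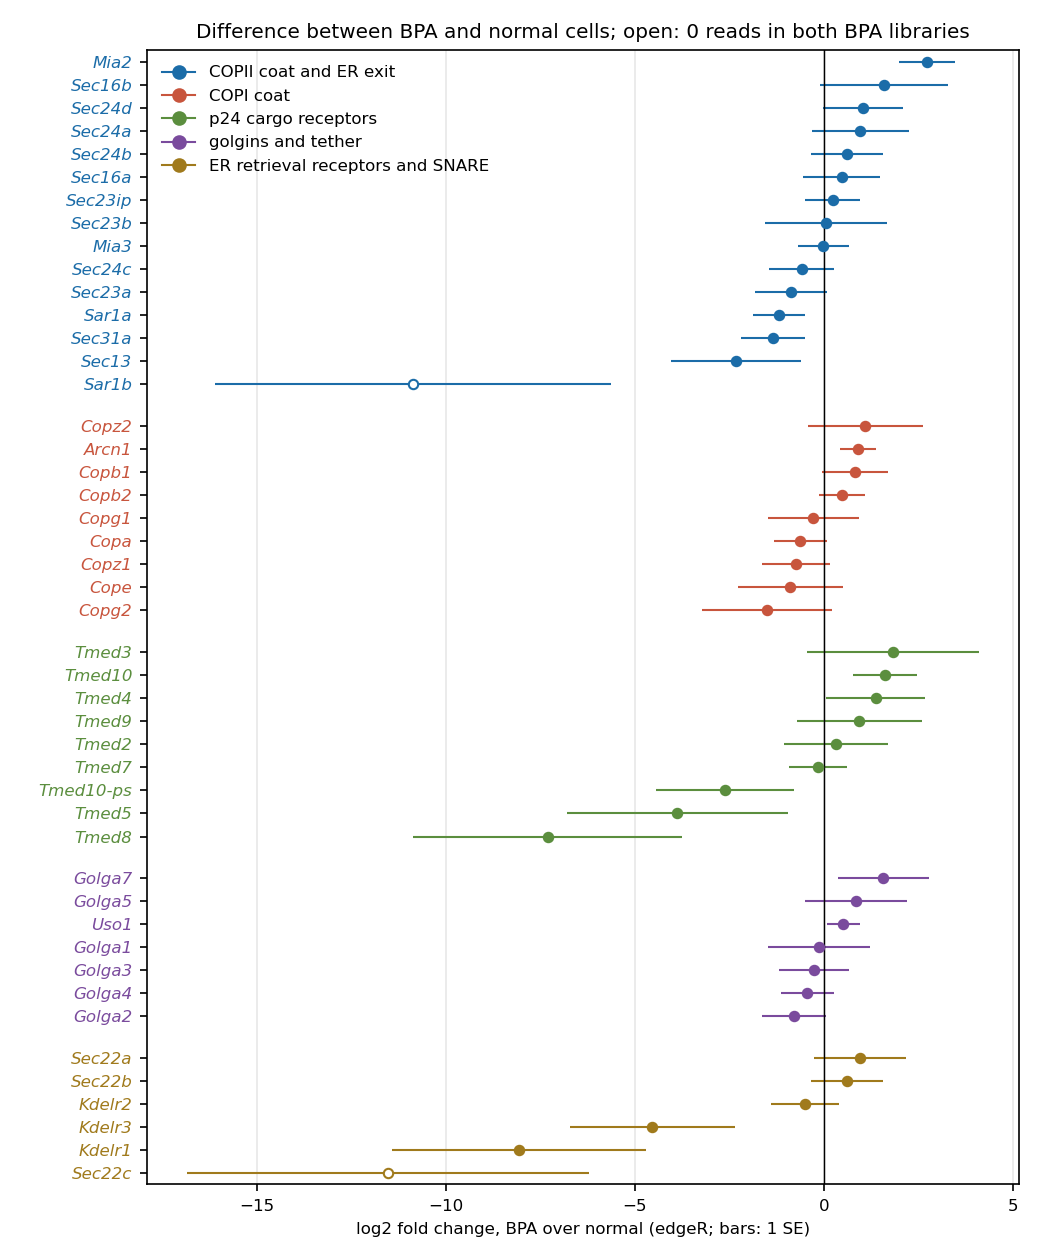
log2 fold change of BPA over normal from edgeR for the 46 tested coat genes, with bars of 1 SE, coloured by role, and open circles for the 2 genes with 0 reads in both BPA libraries, whose value depends on the prior count and is no bound. Mia2 at 2.73 is the highest, and the bars of most genes cross or nearly reach 0.

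Read depth bears on how firmly these values can be taken. For the 15 coat genes that averaged 1000 reads or more, 6 log2 fold changes were positive and 9 negative, at a median of -0.16, against a median of 0.34 for the 1756 tested genes of that depth. When those 1756 genes were fitted alone, the medians were -0.43 and 0.07. The mean log2 fold change was -0.87 for the 46 coat genes and -1.15 for all tested genes, both further below 0 than the medians of -0.07 and -0.02, and fitted values of genes with no reads in BPA enter these means. Setting Sar1b and Sec22c to their bounds left that median at -0.07. By role the median was 0.06 for 15 COPII and exit site genes, -0.29 for 9 COPI genes, 0.32 for 9 p24 genes, -0.13 for 7 golgins and Uso1, and -2.52 for 6 KDEL receptor and Sec22 genes. That last group held 4 negative and 2 positive log2 fold changes, the positive ones being Sec22a at 0.96 and Sec22b at 0.61. Its median lies between Kdelr3 at -4.53 and Kdelr2 at -0.51.

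The surrounding pathway was read from a list of 79 further ER-Golgi genes, 73 of which were tested. edgeR called 0 of the 73. Unadjusted p-values under 0.05 in edgeR numbered 3 for higher and 3 for lower genes, where the shares of all tested genes were 2.41% and 7.23%. The DESeq2 calls were 2 and 2, where the shares of all tested genes were 0.521% and 2.53%. Positive log2 fold changes numbered 34 and negative ones 39, at a median of -0.15 against -0.02 for all tested genes. Bcap31, an ER membrane chaperone that escorts membrane proteins to exit, had 904 and 712 reads in normal cells, compared with 2358 and 2842 in BPA, with a DESeq2 adjusted p of 0.0414. Yipf6, a Golgi membrane protein, had 1069 and 1043 reads against 13 and 26, with a DESeq2 adjusted p of 0.0319. Trappc6b, a subunit of the TRAPP tether, had 904 and 121 against 0 and 0, and Blzf1, a golgin gene, 2 and 0 against 14 and 720. Trappc6b and Blzf1 were the other 2 DESeq2 calls. The edgeR genes under that unadjusted p were Bcap31, Yipf6, Trappc6b, Zw10 (0 and 126 reads against 841 and 698), Cog8 (0 and 3 against 311 and 31) and Gorasp1 (227 and 98 against 0 and 0). Preb, the exchange factor that activates SAR1, had 315 and 191 reads in normal cells, compared with 2 and 1 in BPA, at an edgeR adjusted p of 0.372.

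The second comparison asked how m6A at the coat transcripts differed between the conditions. The authors' peaks carry 1 pooled value per condition for the immunoprecipitate (IP) and for the input, in reads-per-million (RPM), so there is no replicate check. A peak is called higher in BPA where the authors' log2 fold change of the IP-to-input ratio, BPA against normal, is positive. The authors' deposited table calls 28 of the 40 coat gene peaks higher in BPA, against 68.8% of all peaks, and 12 lower, against 31.2%. All 9 COPI peaks and all 3 KDEL receptor peaks were higher, the 10 COPII and exit site peaks were split into 5 and 5, the 13 golgin and Uso1 peaks into 8 and 5, and the 5 p24 peaks into 3 and 2. A peak lay in 23 of the 47 counted coat genes (48.9%), against 17.5% of all counted genes. The coat genes were read more deeply: 15 of the 46 tested averaged at least 1000 reads, against 1756 of all 8645 tested genes. The part of read depth in the share with a peak was not tested.

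Most higher peaks had almost no input reads left in BPA. In 20 of the 40 peaks the BPA input held 10 or fewer reads, as it did in 49.8% of all peaks. Of the 28 higher peaks 19 were of this kind (67.9%, against 62.1% of all higher peaks), and the remaining low-input peak was that of Sec23a. The normal input was that low in 2 peaks, of Sec23a and Sec23ip, against 10.5% of all peaks, and the normal IP in 1, of Uso1, against 7.66%. A cutoff in reads is not equal in RPM between columns. For scale, 3 reads are 3.67 RPM in the BPA input, 1.76 in the normal input and 0.555 in the normal IP. The part of this in these counts was not tested. Over the 28 higher peaks the median log2 change was -4.28 in the input and 0.84 in the IP, after adding 1 RPM. For the 12 lower peaks the median was 1.76 in the input and -2.04 in the IP. The IP stayed within 2-fold in 21 of the 40 peaks, against 43.0% of all peaks, and the input in 8, against 23.7%. The input changed by more than the IP, on the log2 scale, in 23 peaks (57.5%, against 62.5% of all peaks). Of the 28 higher peaks, 16 (57.1%) had an IP within 2-fold, against 46.4% of all higher peaks.

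**Figure D3:**
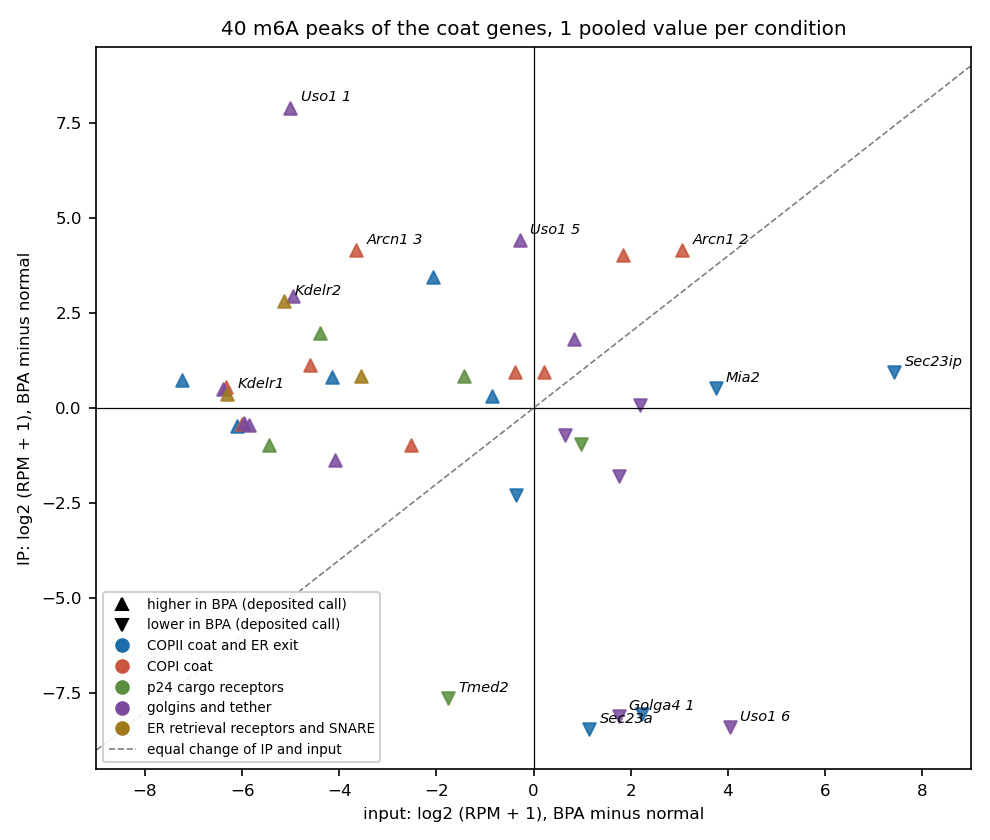
log2 change (BPA minus normal, 1 RPM added) of the input (horizontal) and of the IP (vertical) at the 40 coat gene peaks, with triangles up for peaks higher and down for peaks lower in BPA in the authors' deposited table. Most higher peaks sit at the left, with less input in BPA. The IP was within 2-fold in 16 of the 28 higher peaks, while others, such as Uso1 peak 1 and Kdelr2, also rose in the IP. At the bottom sit 5 lower peaks, where 10 or fewer IP reads were left in BPA.

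The gene counts and the input at the peaks, taken to come from the same RNA-seq libraries, differed at many genes. Of the 20 peaks with 10 or fewer BPA input reads, 15 lay in genes with at least 100 reads in both BPA libraries, where 63.0% of such peaks in all genes did. Tmed10 had more gene reads in both BPA libraries, yet the input at its peak on chromosome 12 (85389638 to 85389837, minus strand, GRCm39) was 98.0 RPM in normal cells and 3.67 RPM in BPA, while the IP was 67.9 and 268 RPM. Golga2 kept 1295 and 254 gene reads in BPA, while the input at its 3-block peak was 214 RPM in normal cells and 2.44 in BPA. At the first Mia3 peak the input went from 34.0 to 7.33 RPM and the IP from 41.1 to 460, with almost equal gene levels. At the second Mia3 peak the BPA input held 0 reads, which allows up to 3.67 RPM.

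The KDEL receptor peaks had as much or more IP signal in BPA, with little input. The Kdelr1 peak on chromosome 7 (45532683 to 45532807, plus strand, GRCm39) had 248 RPM in the normal IP and 319 in the BPA IP, while its input went from 176 to 1.22 RPM, which is 1 read. The BPA IP thus held 1245 reads at this peak, against 1 and 2 reads of the whole gene in the BPA RNA-seq libraries. The Kdelr3 peak on chromosome 15 (79411705 to 79411804, plus strand) had 47.8 and 86.7 RPM in the IP and 97.4 and 7.33 RPM in the input, for normal and BPA cells. At the Kdelr2 peak on chromosome 5 (143407453 to 143407627, plus strand) the IP went from 135 to 950 RPM and the input from 853 to 23.2 RPM. The authors' deposited table gives log2 fold changes of 8.26, 5.37 and 8.79 for the peaks of Kdelr1, Kdelr3 and Kdelr2.

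Mia2 was the reverse case. Its single peak, 25 bases on chromosome 12 (59209752 to 59209776, plus strand, GRCm39), had 177 RPM in the normal IP and 255 in the BPA IP, and 57.5 RPM in the normal input and 786 in the BPA input. The IP differed by less than 2-fold, while the input had a log2 change of 3.75 and the gene had more reads in both BPA libraries. The authors' deposited table calls this peak lower in BPA, with a log2 fold change of -2.47 and a false discovery rate of 4.35e-47. Sec23ip resembled it, with 45.4 and 87.8 RPM in the IP but 0 and 171 RPM in the input for normal and BPA cells, where a normal input of 0 reads allows up to 1.76 RPM. Its gene reads did not separate the conditions.

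A smaller set of peaks had almost no IP reads in BPA. Sec23a had 348 RPM in the normal IP and 0 in the BPA IP (up to 0.768 RPM by the same floor), with 0 and 1 reads in the normal and BPA inputs, so this peak had hardly any input in either condition. Sec24c had 335 and 0.26 RPM in the IP against 106 and 500 RPM in the input, for normal and BPA cells. Tmed2 had 198 and 0 RPM in the IP and 136 and 39.1 RPM in the input. Golga4 peak 1 and Uso1 peak 6 were the other 2 of the 5 peaks with 10 or fewer reads in the BPA IP (12.5%, against 11.2% of all peaks). These were 5 of the 12 lower peaks (41.7%), where the share among all lower peaks was 35.8%. All 5 were called lower in the authors' deposited table, with log2 fold changes from -13.58 for Sec23a to -8.47 for Tmed2.

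Within a gene, neighbouring peaks could point in opposite directions. Uso1 had 6 peaks, numbered here along the chromosome from 92285922 to 92350035 of chromosome 5 (plus strand, GRCm39), 3 of them higher and 3 lower in BPA. Peak 5 had 58.3 RPM in the normal IP and 1275 in the BPA IP, with 1018 and 835 RPM in the inputs. Peak 6, with 225 bases between it and peak 5, had 509 RPM in the normal IP and 0.51 in the BPA IP, with 79.8 and 1333 RPM in the inputs. Peak 1, which spans 14427 bases in 2 blocks, had 0 RPM in the normal IP and 239 in the BPA IP, while its input went from 188 to 4.89 RPM. Peaks 2 and 4 were lower in the authors' deposited table, with log2 fold changes of -1.33 and -0.58, and were covered by at least 10 reads in all 4 columns. Peak 3 was higher, with 292 and 416 RPM in the IP and 701 and 7.33 RPM in the input.

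Golga4 had 4 peaks, of which peaks 1 and 2 were lower and peaks 3 and 4 higher in BPA. Peaks 1 and 2 had equal values in 3 of the 4 columns, 486 RPM in the normal IP, 238 in the normal input and 808 in the BPA input, and differed in the BPA IP alone, with 0.77 and 139 RPM. Arcn1 peaks 2 and 3 shared 29.4 RPM in the normal IP, 103 in the normal input and 541 in the BPA IP, and differed in the BPA input, with 865 and 7.33 RPM. The 2 Cope peaks shared 238 RPM in the normal IP and 351 RPM in the BPA input. Equal values in at least 2 columns were found in 3 of 17 pairs of neighbouring coat gene peaks and in 9.85% of such pairs over all genes. Such pairs are not separate measurements in the columns they share.

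**Figure D4:**
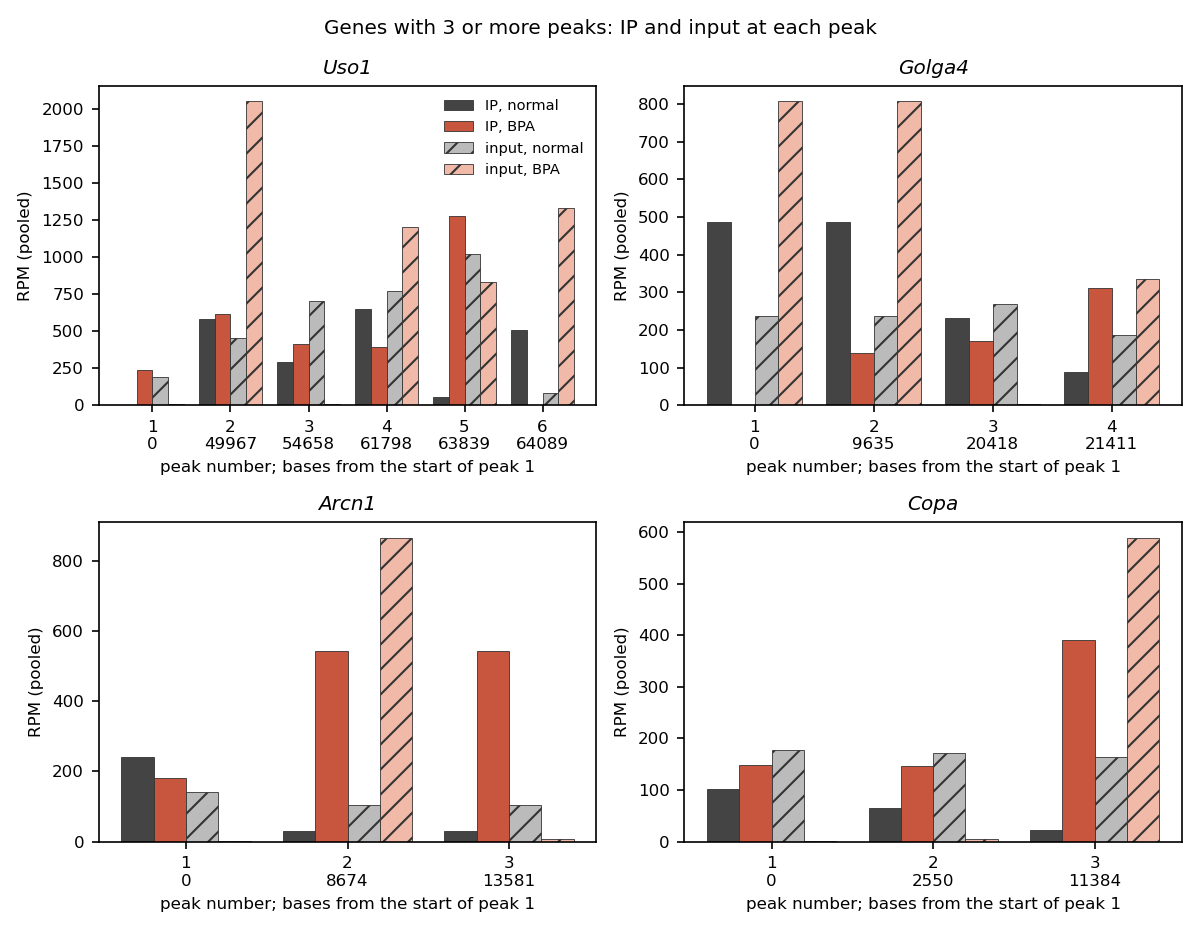
Pooled RPM of IP (solid) and input (hatched) in normal and BPA cells at each peak of the 4 coat genes with 3 or more peaks, with the distance in bases from the start of peak 1 under each peak number. Bars that cannot be seen are at or near 0, as for the BPA input at Uso1 peaks 1 and 3, the BPA IP at Uso1 peak 6 and the BPA input at Copa peak 1.

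All 9 peaks in COPI transcripts were called higher, with different changes of input and IP behind the calls. The input of Arcn1 peak 1 went from 142 to 1.22 RPM while its IP was 242 and 181 RPM in normal and BPA cells. Copa had 3 peaks: at peaks 1 and 2 the input went from 178 to 1.22 and from 172 to 6.11 RPM, and at peak 3 it went from 163 to 589 RPM while the IP went from 23.1 to 391 RPM. Copa peak 3 and Arcn1 peak 2 were thus called higher with a larger log2 change in the IP than in the input, and all 4 columns held at least 10 reads there. The single Copg1 peak had 177 and 89.8 RPM in the IP and 32.9 and 4.89 RPM in the input. Cope peaks 1 and 2, about 850 bases apart from start to start, had the most even coverage, with inputs of 460 and 351 and of 299.9 and 351 RPM. Their IP went from 238 to 460 RPM at both peaks, also a larger log2 change than in the input. The same held for Arcn1 peak 3, where the BPA input held 6 reads.

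Peaks with reads on all sides were fewer. At least 10 reads in all 4 columns were found in 16 of the 40 peaks (against 42.0% of all peaks), 10 higher and 6 lower, and 59.7% of all peaks of that coverage were higher. The 16 lay in Arcn1, Copa, Cope, Mia2, Sec13, Sec31a, Kdelr2, Golga4, Uso1 and Tmed7. Sec31a peak 1, with exactly 10 BPA input reads, was counted here and also among the 20 peaks with 10 or fewer. The 2 Sec31a peaks, 175 bases apart from start to start on chromosome 5, were opposite: peak 1 had 137 and 241 RPM in the IP with 234 and 12.2 in the input, and peak 2 had 428 and 87.0 in the IP with 330 and 258 in the input. Tmed7 also had 1 higher and 1 lower peak, with 242 and 431 against 777 and 403 RPM in the IP. Of the Sec13 peaks, the first had 108 and 135 RPM in the IP with 134 and 73.3 in the input, and the second had 118 and 84.4 in the IP with 67.5 and 0 in the input. The peaks of Golga3, Golga5 and Tmed9, with 6, 1 and 0 BPA input reads, completed the 40.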

How the data were processed

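Messenger RNA was purified on beads, fragmented and partly immunoprecipitated for m6A, per the labels' protocols. For each Ensembl gene the authors deposited a whole-number read count. The submitters' processing notes name DESeq2 1.38.3, featureCounts 2.0.1, HISAT2 2.2.1 and fastp 0.20.1. They list the builds GRCm39 and GRCh38 without saying which served for what. The sources used here do not give the peak caller, strandedness or handling of multi-mapping reads. The count columns name a condition and a number. Since the design text calls RNA-seq the input and the notes name a gene counter, these columns were taken as RNA-seq. Of 51 members, 20 overlap another RefSeq gene in GRCm38.p6, such as Copa with Ncstn and Kdelr3 with Ddx17, so their reads may include a neighbour's.

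For each peak the authors deposited 1 RPM value per condition and fraction, with replicates pooled. Every RPM value came out as a whole number of reads within 0.1 read, which gave the reads behind it. These steps correspond to totals of 5402180 (normal IP), 1703690 (normal input), 3908370 (BPA IP) and 818212 (BPA input) reads, which are not sequencing depths. The log2 fold change of each peak, its p-value and its false discovery rate were deposited by the authors. That log2 value exceeds the ratio of the RPM columns by 0.78 in 1016 well-covered peaks, and the RPM ratio had another sign than the deposited value in 0 of the 33 coat gene peaks where it is defined, and in 123 of 2580 over all genes. Peaks were read as GRCm39 (11.3% of 3176 lay inside their gene's GRCm38 span), and starts were made 1-based. Exons, introns, UTRs and peak sequences are not analysed here.

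Counts were tested over the whole table with edgeR 4.0.16 in R 4.3.3 (TMM, filterByExpr at minimum count 10 and minimum total 15, robust bias-adjusted quasi-likelihood fit, Benjamini-Hochberg at 0.05), with SE from the F statistic and CPM on TMM-scaled libraries. DESeq2 1.42.0, its size factors in edgeR, no filter, genes of at least 1000 mean reads alone, a replicate block, leaving out each library and edgeR's legacy fit were alternatives, the last added after seeing the data. The scripts were tested on simulated counts, and at low spread both tools recovered nearly every changed gene. With the median spread of these libraries given to every gene, edgeR called no changed gene and most DESeq2 calls fell on unchanged genes. Real genes differ in spread, so this does not show how many DESeq2 calls in these data are false. Named in full were members with a mean of at least 1000 reads, an unadjusted edgeR p under 0.05, a DESeq2 call or a peak. Other members are given by their reads, and pathway genes named were those with a call or an unadjusted p under 0.05, with Preb and the markers chosen after values were seen. The members, lists and tests were chosen with earlier results of these data known. Reads carried no molecular identifiers, so intervals and floors describe counting error and not molecules.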

Additional observations from a re-analysis of the deposited data

How the results depend on the processing

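edgeR called 0 genes in all (unadjusted p under 0.05 for 208 higher and 625 lower genes), and 0 with DESeq2's size factors, with no filter, among genes of at least 1000 mean reads and in the legacy fit, whose unadjusted split was 117 and 1095. DESeq2 called 264. Leaving out 1 library gave 0 to 1 calls (1 without normal replicate 1), with the lone library of a condition assumed to vary like the other pair. Equally numbered libraries had deviations with a correlation of -0.00096, so no pairing by replicate number was seen. With libraries that spread this far, this does not settle whether the numbers mark paired cultures. With the replicate number as a block edgeR called 0 genes, 164 higher and 52 lower unadjusted, and the coat gene median was -0.04. That median of -0.07 was -0.43 among genes of at least 1000 mean reads and ranged from -0.25 without BPA replicate 2 to 0.24 without normal replicate 2.

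Of 249 values for the 26 coat genes named in full, 224 kept direction and side of the threshold, 3 passed it (Mia2, Kdelr1 and Sec22c in DESeq2) and 22 changed sign, and the cause was not tested. Mia3 had 0.12 in DESeq2, 0.12 with its size factors and 0.053 with no filter. Tmed7 had 0.0030 in DESeq2, and Sec23ip had -0.040 among genes of at least 1000 mean reads. Leaving out single libraries, the log2 fold change ranged from -5.67 to 0.43 for Cope, -0.51 to 0.072 for Copg1, -0.031 to 0.15 for Mia3, -0.22 to 1.05 for Sec23ip, -2.35 to 0.50 for Kdelr2, -1.90 to 0.021 for Golga2, -0.92 to 0.31 for Golga3, -5.98 to 2.11 for Golga5, -2.27 to 1.02 for Tmed2, -0.74 to 0.41 for Tmed7 and -0.40 to 6.15 for Tmed9.

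All 40 peaks passed the authors' false discovery rate at 0.01, with 28 higher and 12 lower. Asking for at least 10 reads in all 4 columns left 10 higher and 6 lower, since fewer peaks were counted. The median IP change of 0.52 was 0.52 with 0.1 RPM and 0.50 with 10 RPM added, and the median input change of -1.92 was -1.996 and -1.44.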
